A study of Mus musculus with 24 samples.

Results

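The immunoglobulin heavy and light chain genes of the mouse were described in bulk RNA sequencing libraries labelled as kidney. They comprised every gene whose symbol began with a heavy, kappa or lambda constant, variable, diversity or joining segment name and that reached 1 TPM (the authors' length-normalised transcript level, scaled to each library's total) in at least 2 of 24 libraries. Of 30153 genes in the table, 319 carried such a symbol and 146 met the threshold. The members were 66 heavy variable (Ighv), 4 heavy joining (Ighj), 6 heavy constant, 62 kappa variable (Igkv) and 4 kappa joining (Igkj) genes, the kappa constant gene Igkc, the lambda constant gene Iglc2 and 2 lambda variable (Iglv) genes. The other 173 genes included 93 listed at 0 in every library, among them all 20 diversity segments. The 13 members that reached 1 TPM in exactly 2 libraries had highest values between 1.46 and 25.8 TPM, and the 34 genes that did so in exactly 1 library had highest values between 1.07 and 27.4 TPM.

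The series concerned western diet and the renal transcriptome in a hypertensive mouse that carries the human type 1 angiotensin receptor in excess. Each of 6 groups held 4 animals: aged Hap-I mice fed western diet, adult Hap-I mice fed western diet, adult Hap-II mice fed western diet, aged Hap-I mice, adult Hap-I mice, and adult C57 mice. The labels gave C57/BL6 as the strain throughout and Hap as short for haplotype, with no other allele or agent. No diet was stated for the last 3 groups, and the promoter of the transgene, the founder lines, sex, exact age and diet length were not given in the sources used here.

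An antibody is built of paired heavy and light chains. In each developing B cell a variable, a diversity and a joining segment are joined to encode the variable part of the heavy chain, and a variable and a joining segment to encode that of a kappa or lambda light chain. Naive B cells carry the mu and delta heavy chains as surface receptors, switched cells use gamma, alpha or epsilon instead, and plasma cells transcribe their heavy and light chain at very high levels. In bulk samples, fewer B lineage cells and less RNA per cell cannot be told apart.

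The joining segments are shown because a transcript of a rearranged locus carries one of them. Capitals mark the bases that encode the conserved glycine motif of the joining region: TTCGG, any 4 bases and GGNAC in kappa segments (phenylalanine, glycine, any residue, glycine), and TGGGG in place of TTCGG in heavy segments (tryptophan for phenylalanine). All sequences are GENCODE M21 transcripts on GRCm38, and the coding strand alone was searched.
Igkj1: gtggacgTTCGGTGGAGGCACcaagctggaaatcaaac
Igkj2: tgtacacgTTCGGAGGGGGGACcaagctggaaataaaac
Igkj3: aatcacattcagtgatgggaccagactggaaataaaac
Igkj4: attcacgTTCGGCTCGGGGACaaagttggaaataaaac
Igkj5: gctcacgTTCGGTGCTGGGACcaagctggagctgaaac
Ighj1: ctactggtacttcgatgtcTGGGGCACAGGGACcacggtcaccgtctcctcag
Ighj2: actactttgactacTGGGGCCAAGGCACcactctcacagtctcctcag
Ighj3: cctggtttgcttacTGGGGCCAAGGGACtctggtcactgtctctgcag
Ighj4: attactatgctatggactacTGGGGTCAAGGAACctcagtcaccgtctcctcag
The kappa motif was present in 4 of 5 kappa joining segments and the heavy motif in 4 of 4 heavy ones. The exception, Igkj3, is known as non-functional in the mouse. It reached 1 TPM in 1 library and was therefore not a member.

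The last 60 bases of the variable segments that recur in the results are shown so that their 3′ ends can be compared. The next segment is attached there, a joining segment in light chains and a diversity segment in heavy chains. Capitals mark the first run of codons for tyrosine, any residue and cysteine, searched as TATNNNTGT, TATNNNTGC, TACNNNTGT or TACNNNTGC. This cysteine is the conserved one that precedes the junction.
Igkv3-2: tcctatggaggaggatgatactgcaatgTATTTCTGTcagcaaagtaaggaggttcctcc
Igkv10-96: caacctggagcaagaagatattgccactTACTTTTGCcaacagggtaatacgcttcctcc
Igkv1-110: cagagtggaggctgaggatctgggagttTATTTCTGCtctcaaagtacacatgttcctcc
Igkv1-117: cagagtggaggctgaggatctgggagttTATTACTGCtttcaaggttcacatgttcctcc
Ighv1-53: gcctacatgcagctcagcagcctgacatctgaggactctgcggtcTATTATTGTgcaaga
Ighv1-72: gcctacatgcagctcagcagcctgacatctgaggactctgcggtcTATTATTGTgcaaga
Iglv1: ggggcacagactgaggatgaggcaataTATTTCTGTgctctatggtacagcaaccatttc
Of 129 variable members with an annotated variable transcript, 128 held such a run. Ighv1-53 and Ighv1-72 end in the same 60 bases. Over whole transcripts, 72.9% of the 31-base words of Ighv1-53 and 98.1% of those of Ighv1-72 also occurred in another annotated gene, against 36.5% for Igkv3-2. In 59 members, 25 heavy and 34 kappa variable segments, more than 50% of the words were shared. Levels of those single segments are uncertain, since reads can be split among near-identical copies. The highest share in a constant region was 19.6% (Iglc2), and Igkc and Ighm shared no word.

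Kidney transcripts were abundant in 16 of the 24 libraries. Transcripts of 6 nephron genes, Umod, Lrp2, Slc34a1, Slc12a1, Slc12a3 and Aqp2, summed to between 350.2 and 5619 TPM in the 3 western diet groups and in C57 mice. In the 8 libraries of Hap-I mice with no stated diet they summed to between 0.173 and 6.33 TPM, while 5 neuronal genes summed to between 3126 and 3906 TPM there and to at most 5.26 TPM in the other 16. These 8 libraries are described apart, the comparisons on western diet and with C57 were fitted to the other 16, and a contrast between the 2 sets compares different tissue contents. TPM keep no read totals, so depth was unknown.

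Immunoglobulin transcripts were most abundant in aged diet-fed Hap-I mice and in 1 C57 mouse. Summed over the 146 members, TPM were 2751, 3198, 1654 and 1052 in aged diet-fed Hap-I mice, 369, 526, 302 and 84.9 in adult diet-fed Hap-I mice, 581, 84.6, 329 and 315 in diet-fed Hap-II adults, and 3796.5, 735, 841 and 455 in C57 adults. All 4 aged libraries lay above all 8 libraries of diet-fed adults. Replicate 1 of C57 lay above every other library, and the other 3 C57 libraries lay below the lowest aged one. Igkc, the constant region of the kappa light chain (chr6:70726435-70726966), ranked between 77 and 216 among all genes of a library by TPM in the aged mice, against 466 to 1371 in adult diet-fed Hap-I mice.

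The constant regions are long, nearly unique in sequence and common to all transcripts of an isotype. Igkc stood at 1157, 1081, 497 and 531 TPM in aged diet-fed Hap-I mice, against 117, 185, 112 and 43.8 TPM in adult diet-fed Hap-I mice. The groups did not overlap, and the log2 difference, aged minus adult, was 2.89 ± 0.624 (SE) with an adjusted p of 0.088 (limma over 12923 genes, Benjamini-Hochberg). Ighm, the mu heavy chain of IgM (chr12:113418558-113422730), stood at 220.3, 114, 48.3 and 43.4 TPM in the aged and 8.50, 20.5, 5.61 and 3.72 TPM in the adult diet-fed mice. Every aged library again exceeded every adult one, by a log2 difference of 3.27 ± 0.687 (limma adjusted p = 0.0786). Igha, the alpha heavy chain of IgA (chr12:113254830-113260236), stood at 87.7, 280.2, 168 and 71.7 TPM in the aged and 24.9, 17.1, 18.9 and 10.2 TPM in the adult diet-fed mice. It did not overlap either (log2 difference 2.88 ± 0.652, limma adjusted p = 0.0985).

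The gamma chains of IgG and the lambda chain were likewise higher in each aged library than in each adult one. Ighg2b stood at 35.5, 36.1, 11.1 and 29.8 TPM in aged and 1.71, 6.98, 3.49 and 0.906 TPM in adult diet-fed Hap-I mice (log2 difference 2.85, limma adjusted p = 0.142). Ighg2c, the IgG2 subclass that C57BL mice carry in place of Ighg2a, stood at 26.7, 31.2, 14.1 and 54.7 TPM in the aged and 3.22, 11.5, 2.46 and 0.376 TPM in the adult mice (log2 difference 2.89, adjusted p = 0.197). Ighg1 was lower than both in these 8 libraries' group means, at 8.28, 7.68, 2.65 and 6.86 TPM in the aged and 1.01, 0.972, 2.27 and 0.0809 TPM in the adult mice. Its log2 difference was 1.84 (limma adjusted p = 0.246). The lambda constant gene Iglc2 stood at 17.98, 9.11, 3.03 and 8.88 TPM in the aged and 1.97, 2.53, 1.24 and 0.823 TPM in the adult mice (log2 difference 1.87, adjusted p = 0.145).

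Ighd, the delta chain that naive B cells carry beside mu, was the exception among the constant members. It stood at 0.397, 0.0426, 0.765 and 1.30 TPM in aged and 0.366, 0.492, 0.441 and 0.209 TPM in adult diet-fed Hap-I mice, and the groups overlapped. The two-sided exact permutation p was 0.514 for Ighd (n = 4 each) and 0.0286 for each of Igkc, Iglc2, Ighm, Ighg1, Ighg2b, Ighg2c and Igha. That is the smallest p that 4 against 4 libraries allow, and 16 such tests were run, on 8 genes in 2 comparisons. Ighg3 and Ighe, the gamma-3 and epsilon chains, were below the membership threshold, with at most 2.63 TPM of Ighg3 and 0.235 TPM of Ighe in any library.

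**Figure D1:**
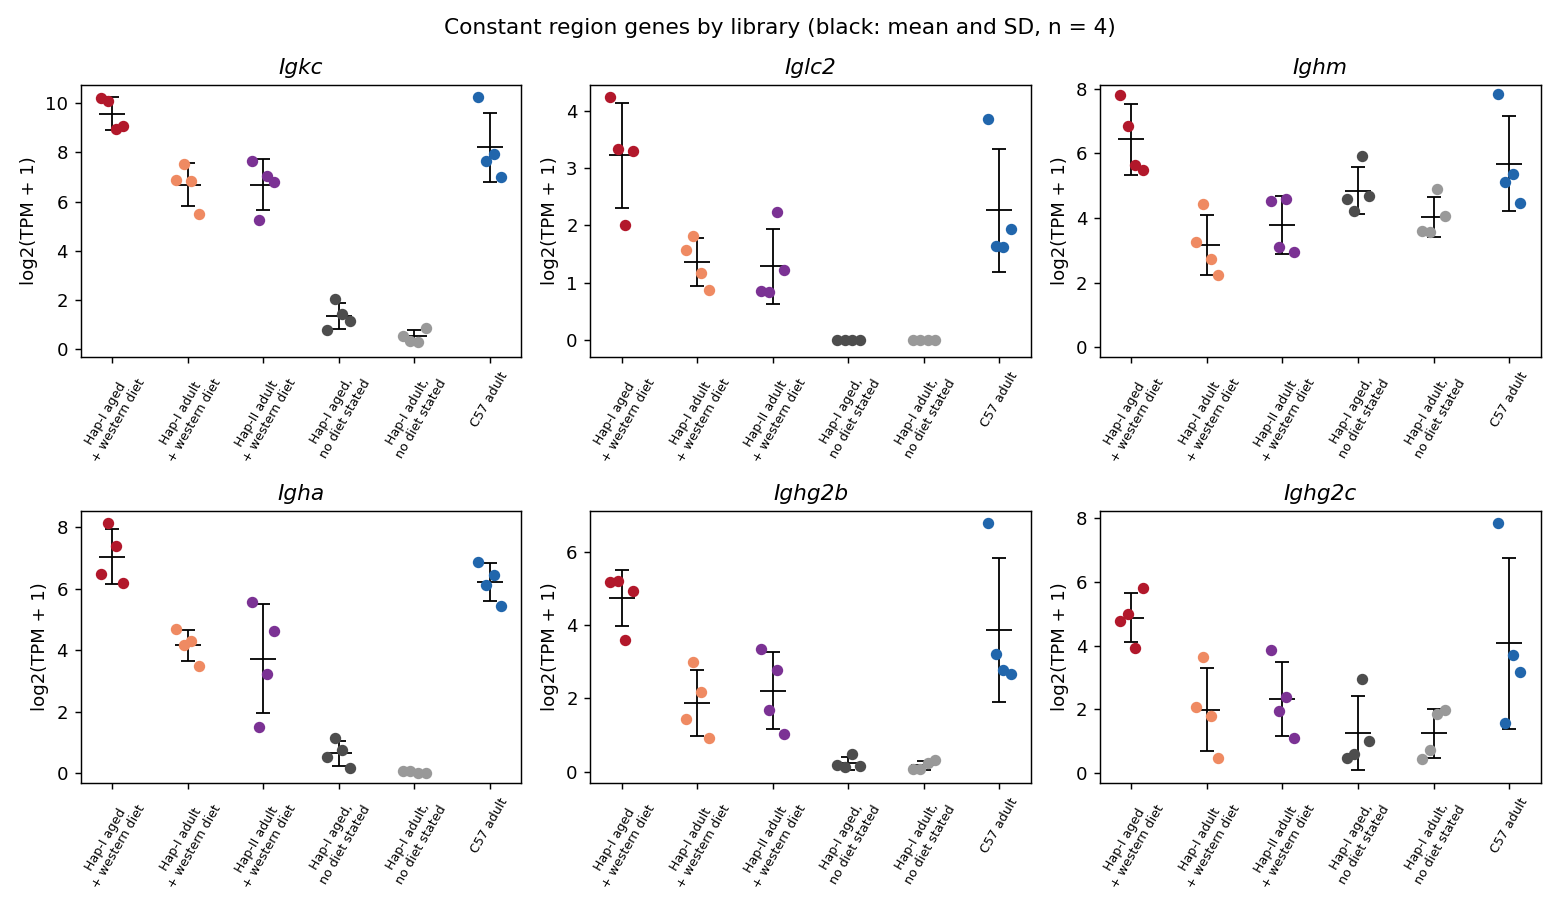
Level of 6 constant region genes, log2(TPM + 1) on the vertical axis, in each library of the 6 groups (n = 4 each). Points are libraries, and black marks give the mean and SD. Igkc lies between 497 and 1157 TPM in aged Hap-I mice on western diet and at or below 3.16 TPM in the 8 libraries of Hap-I mice with no stated diet, whereas Ighm is at least 10.7 TPM in those 8.

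Over the members as a list, the aged mice lay above the adults in nearly all, but 0 of 117 tested members were called. At a limma adjusted p under 0.05, 4 of 12923 genes passed (0.031%). At an unadjusted p under 0.05 there were 76 of 117 members, against 16.1% of all genes. The aged and adult groups did not overlap in 35 members that were higher in aged mice (29.9%) and 0 that were lower, against 6.18% of all genes higher and 0.642% lower. Those 35 were 7 constant, 15 heavy variable, 11 kappa variable, 1 kappa joining and 1 lambda variable gene. The log2 difference was above 0 in 115 of 117 members, the exceptions being Ighv1-76 and Igkv4-53, and its median was 1.56 over the members and 0.32 over all genes. The other 29 members were too low to be tested. Of the 117, 83 would also have been tested on the 12 libraries other than the aged ones, and 27 of those 83 did not overlap. The rest of the 117 reached the filter only with the aged libraries, which favours a positive difference in them. The 76 members, the 115 members and the median of 1.56 are given over all 117, and nothing is read from the count above 0.

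The call depended on how the spread was estimated and on single libraries. When all 24 libraries shared 1 estimate of the spread, 34 members and 443 genes were called, all 34 higher in aged mice. Of the 117 members, 88 were listed at 0 in all 8 added libraries, which lowers their estimated spread. Nothing is therefore read from the calls of this fit. In that fit the limma adjusted p was 0.0136 for Igkc, 0.0147 for Ighm, 0.0149 for Igha, 0.0282 for Ighg2b and 0.0264 for Iglc2, but 0.0931 for Ighg2c and 0.101 for Ighg1. Library weights estimated from the data gave 44 called members, and with them 2199 of all genes (17%). Without replicate 4 of the aged group, which had the lowest total of its group, 12 members were called among 22 genes. Without replicate 2 of the adults, which had the highest of theirs, 2 members were called among 5 genes.

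**Figure D2:**
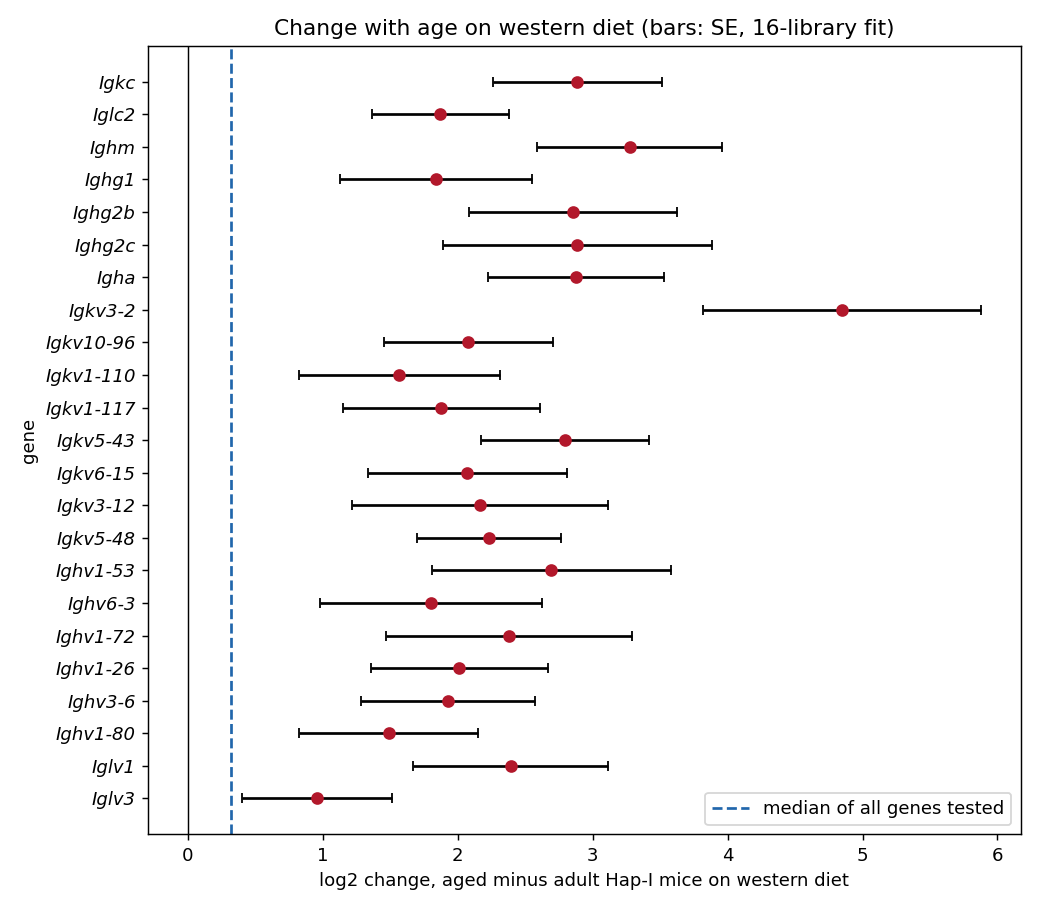
Log2 difference of aged minus adult Hap-I mice on western diet (horizontal axis) for 7 constant region genes and 16 variable segments (vertical axis), with SE bars from the limma fit of 16 libraries (n = 4 per group). The dashed line is the median of all genes tested, 0.32. All 23 points lie to its right, and 0 of the 23 passed an adjusted p of 0.05.

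Genes of B lineage cells other than the immunoglobulins were examined as lists. Of 11 plasma cell genes 5 were tested, 0 were called and 2 had an unadjusted p under 0.05. Jchain, which joins IgA and IgM into polymers, stood at 107, 67.7, 44.7 and 43.3 TPM in aged and 18.8, 25.8, 21.4 and 4.99 TPM in adult diet-fed Hap-I mice. It did not overlap (log2 difference 1.93, limma adjusted p = 0.16). Mzb1, a chaperone-associated protein of antibody-secreting cells, stood at 6.96, 4.17, 2.85 and 3.52 TPM in the aged and 1.67, 2.10, 1.78 and 1.73 TPM in the adult mice, without overlap (adjusted p = 0.287). Xbp1, a transcription factor of secretory cells of many kinds, overlapped, at 40.2, 102, 98.1 and 41.3 TPM in the aged and 54.8, 47.9, 40.3 and 61.1 TPM in the adult mice. Fkbp11, another gene of secretory cells, overlapped too, at 5.68, 7.25, 6.80 and 3.54 TPM in the aged and 4.88, 5.50, 4.42 and 2.69 TPM in the adult mice.

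Of 15 genes of the B cell receptor and B cell identity, 7 were tested, 0 called and 1 past an unadjusted p of 0.05. Cd72, a coreceptor of B cells, stood at 11.2, 8.99, 12.6 and 8.23 TPM in aged and 5.27, 4.79, 2.62 and 3.27 TPM in adult diet-fed Hap-I mice, without overlap (limma adjusted p = 0.0984). Blnk, an adaptor downstream of the B cell receptor, overlapped, at 6.61, 10.6, 5.21 and 6.37 TPM in the aged and 6.66, 7.17, 4.22 and 2.37 TPM in the adult mice. Cd79a, a signalling chain of that receptor, stood at 2.39, 2.56, 1.42 and 1.32 TPM in the aged and 0.956, 0.887, 0.459 and 0.436 TPM in the adult mice. Ms4a1, which encodes CD20, was at most 0.900 TPM in these 8 libraries. Of 7 genes of recombination and switching 2 were tested and 0 called, with Rag1, a recombinase of segment joining, at most 0.00523 TPM in the 16 libraries. Summed over 6 B cell markers, TPM lay between 3.88 and 10.1 in aged and between 1.62 and 5.44 in adult diet-fed Hap-I mice. The 6 plasma cell markers summed to between 51.6 and 119 TPM in the aged and between 8.04 and 32.4 TPM in the adult mice. Jchain made up most of that sum in each of these libraries. The markers Sdc1, Prdm1, Tnfrsf17 and Derl3 overlapped between the groups. Sdc1 stood at 4.27, 4.85, 4.39 and 3.55 TPM in the aged and 3.47, 3.73, 4.65 and 1.16 TPM in the adult mice.

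Markers of other cells were examined in the same way. The 6 macrophage markers summed to between 79.7 and 202 TPM in aged and between 30.1 and 106 TPM in adult diet-fed Hap-I mice, and 6 of 6 had an unadjusted limma p under 0.05 and 0 an adjusted one. The 7 T cell markers summed to between 11.8 and 22.2 TPM in the aged and between 4.58 and 9.76 TPM in the adult mice, without overlap, and 0 of 5 tested were called. The 5 red cell genes overlapped, with sums between 2787 and 26289 TPM in the aged and between 3906 and 9619 TPM in the adult mice. Genes of lymph node stroma and vessel summed to between 16.8 and 48.9 TPM in the aged and between 7.21 and 27.2 TPM in the adult mice, with Madcam1 listed at 0 in all 8. The 6 nephron genes summed to between 576 and 3432 TPM in the aged and between 350 and 1371 TPM in the adult mice. Their log2 difference was above 0 in 6 of 6, with a median of 0.74 (all genes 0.32), and 0 had an unadjusted limma p under 0.05. The 3 fat cell genes summed to between 1.66 and 12.9 TPM in the aged and between 0.0085 and 8.30 TPM in the adult mice. The part of these cells and of blood content in the differences of the members was not tested.

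Receptors and carriers of antibody formed a list of 9 genes, all tested. None was called by limma, 4 had an unadjusted p under 0.05, and the median log2 difference was 0.65, aged minus adult. Fcgrt, the neonatal Fc receptor, stood at 36.6, 124, 96.4 and 35.6 TPM in aged and 41.4, 41.9, 36.8 and 38.9 TPM in adult diet-fed Hap-I mice. Fcgr2b, the inhibitory receptor for IgG, stood at 25.6, 48.96, 44.9 and 12.5 TPM in the aged and 28.2, 27.1, 28.5 and 21.2 TPM in the adult mice. Pigr, the epithelial carrier of polymeric IgA and IgM, stood at 10.8, 19.6, 73.4 and 53.4 TPM in the aged and 5.57, 51.7, 48.1 and 24.9 TPM in the adult mice. These 3 most abundant genes of the list all overlapped between the groups. Of the 9, 2 did not overlap, both singled out after their values had been seen. Fcgr4, an activating receptor for IgG, stood at 10.8, 6.30, 7.89 and 5.01 TPM in the aged and 3.85, 2.35, 2.33 and 0.922 TPM in the adult mice (log2 difference 1.37, limma adjusted p = 0.125). Fcgr1, the high-affinity receptor for IgG, stood at 2.33, 1.61, 1.98 and 1.52 TPM in the aged and 1.41, 0.739, 0.434 and 0.233 TPM in the adult mice (log2 difference 0.79, limma adjusted p = 0.16).

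The isotype makeup varied widely within every group. As a share of heavy chain constant region TPM, Igha took 23.1%, 59.7%, 68.6% and 34.5% in aged diet-fed Hap-I mice and 62.7%, 29.8%, 56.9% and 65.9% in adult diet-fed Hap-I mice. It took 47.5%, 12.4%, 19.7% and 71.3% in diet-fed Hap-II adults and 16.5%, 60.6%, 59.2% and 52.8% in C57 adults. The 4 groups overlapped, and Igha was the largest isotype in 10 of the 16 libraries. Ighm was the largest in 4, namely replicate 1 of the aged group (58.1%), replicate 2 of the diet-fed Hap-I adults (35.6%) and replicates 2 and 3 of the Hap-II adults (50.8% and 53.5%). The gamma chains together led in 2, replicate 4 of the aged group (43.98%) and replicate 1 of C57 (50.9%).

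**Figure D3:**
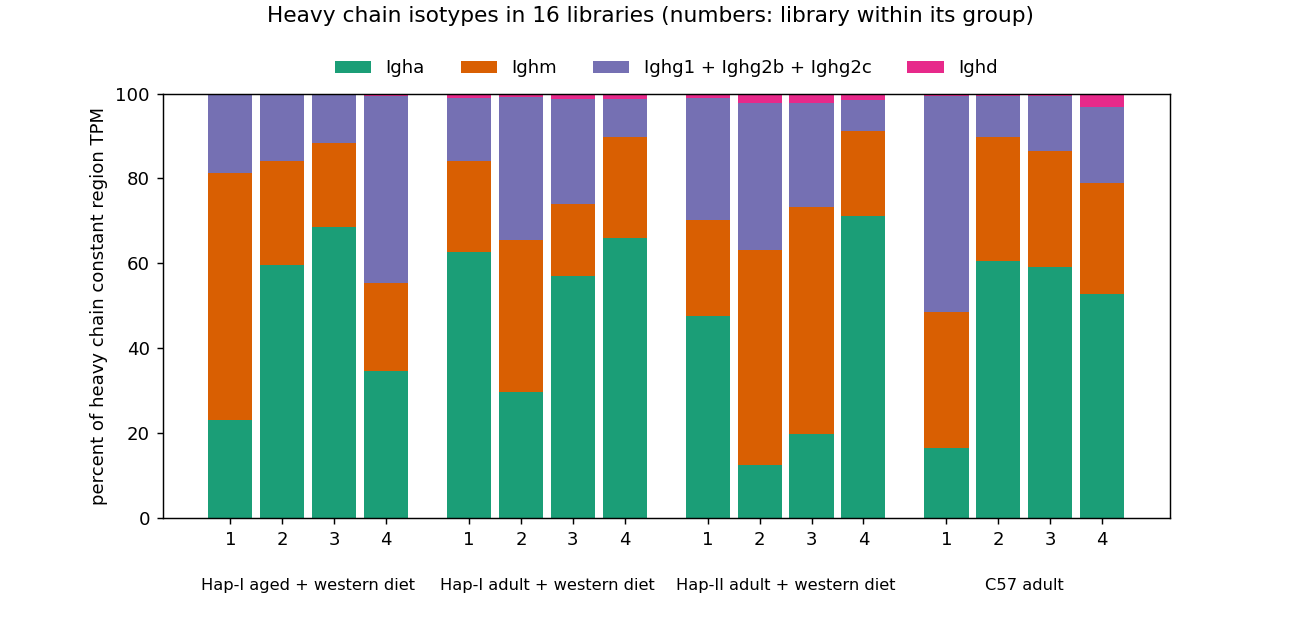
Share of each heavy chain isotype in the summed heavy chain constant region TPM (vertical axis, percent) of 16 libraries, grouped along the horizontal axis. Igha ranges between 12.4 and 71.3% within Hap-II adults on western diet alone, and Ighd takes at most 3.20% in any of the 16.

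Kappa exceeded lambda in each of the 16 libraries, by a margin that depended on the genes summed. Of kappa and lambda constant region TPM, Igkc took between 98.4 and 99.4% in aged diet-fed Hap-I mice, between 98.2 and 98.9% in adult diet-fed Hap-I mice, between 97.3 and 99.6% in diet-fed Hap-II adults and between 97.8 and 99.1% in C57 adults. Iglc2 stands for lambda here, and the other lambda constant genes were not analysed here. Of kappa and lambda variable TPM, by contrast, the kappa variable members took between 86.98 and 94.2% in the aged, between 83.5 and 93.5% in the adult diet-fed Hap-I mice, between 90.1 and 98.98% in Hap-II adults and between 90.9 and 96.3% in C57 adults. The share by constant regions thus rests on Iglc2 alone. Iglv1, the most used variable segment of mouse lambda chains, stood at 93.97, 84.2, 29.2 and 27.2 TPM in aged and 11.9, 11.7, 11.4 and 3.46 TPM in adult diet-fed Hap-I mice, without overlap (log2 difference 2.39, limma adjusted p = 0.163). It exceeded Iglc2 in TPM, a level per length, in each of these 8 libraries.

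Ratios within a library compare chains independently of the total. Heavy chain constant TPM per Igkc TPM was 0.328, 0.434, 0.493 and 0.391 in aged diet-fed Hap-I mice, 0.339, 0.311, 0.297 and 0.355 in adult diet-fed Hap-I mice and 0.484, 0.395, 0.326 and 0.308 in diet-fed Hap-II adults. In C57 adults it was 0.592, 0.571, 0.602 and 0.630, above all 12 libraries on western diet. Jchain per 100 TPM of Igkc was 9.26, 6.26, 9.01 and 8.14 in the aged and 16.1, 13.96, 19.1 and 11.4 in the adult diet-fed Hap-I mice, without overlap, so that Jchain took a lower proportion in the aged mice although its level was higher there. The same ratio was 9.17, 12.2, 21.6 and 16.8 in Hap-II adults and 4.31, 7.45, 7.06 and 6.79 in C57 adults. These ratios were formed after values had been seen and are given with no test.

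A broad set of variable segments was detected in aged diet-fed mice and in C57 mice. Kappa variable members at 1 TPM or more numbered 50, 53, 49 and 36 in aged diet-fed Hap-I mice, 28, 37, 21 and 4 in adult diet-fed Hap-I mice, 32, 9, 33 and 31 in diet-fed Hap-II adults, and 49, 38, 38 and 30 in C57 adults. Heavy variable members at that level numbered 36, 55, 48 and 20 in the aged mice, 10, 15, 11 and 1 in adult diet-fed Hap-I mice, 28, 2, 7 and 13 in Hap-II adults, and 50, 29, 37 and 22 in C57 adults. A count at a fixed TPM moves with the total, and the library with the fewest in each of these groups was also the one with the lowest total. Of 62 kappa variable members, 30 reached 1 TPM in all 4 aged libraries, 3 in all 4 of the adult diet-fed Hap-I mice, 7 in all 4 Hap-II libraries and 22 in all 4 C57 libraries. Of 66 heavy variable members the numbers were 11 in the aged, 0 in the adult Hap-I, 1 in the Hap-II and 11 in the C57 libraries.

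Igkv3-2 (chr6:70698449-70699067) was the kappa segment with the highest mean. It stood at 188, 86.9, 63.2 and 9.20 TPM in aged diet-fed Hap-I mice, against 0, 1.99, 3.73 and 0.118 TPM in adult diet-fed Hap-I mice. The groups did not overlap, and the log2 difference was 4.85 ± 1.03 (SE, limma adjusted p = 0.0845). It ranked first in replicates 1, 2 and 3 of the aged group, with 23.6%, 9.87% and 12.3% of kappa variable TPM. In Hap-II adults it stood at 9.06, 1.49, 4.91 and 1.00 TPM and in C57 adults at 62.6, 6.13, 4.33 and 0 TPM.

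The lowest adjusted p of a member for age on the diet, 0.0619 by limma, was shared by Igkv12-46 and Igkj4, both singled out after their values had been seen. Igkv12-46 stood at 25.6, 15.6, 9.41 and 8.05 TPM in aged and 0.619, 3.67, 0.732 and 0 TPM in adult diet-fed Hap-I mice. Igkj4 stood at 15.2, 18.96, 10.3 and 4.48 TPM in the aged and 0, 2.86, 0 and 0 TPM in the adult mice. Neither overlapped between the groups.

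Elsewhere the leading kappa segment was most often Igkv10-96, first in 5 of 16 libraries, or Igkv1-110, first in 3. Igkv10-96 stood at 49.3, 51.9, 34.4 and 11.03 TPM in aged and 3.56, 17.8, 17.04 and 1.30 TPM in adult diet-fed Hap-I mice (log2 difference 2.08, limma adjusted p = 0.163). Igkv1-110 stood at 34.9, 39.7, 47.2 and 10.5 TPM in the aged and 17.4, 14.6, 11.3 and 1.96 TPM in the adult mice (log2 difference 1.57, adjusted p = 0.31). Both overlapped, through replicate 4 of the aged group. In that replicate Igkv8-24 led, with 22.7 TPM and 12.2% of kappa variable TPM. Igkv3-4 led in replicate 1 of C57 at 75.98 TPM, where its 3 companions had at most 1.45 TPM.

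The Ighv1 family held 35 of the 66 heavy variable members and the largest share of heavy variable TPM. Its 35 members took between 38.9% and 84.6% of heavy variable TPM in the 16 libraries, on average 56.6%. Group means lay between 49.2% in C57 adults and 69.7% in diet-fed Hap-II adults. Given the number of its members, no preference for the family is read from this share. Ighv1-53, first in 4 libraries, stood at 19.2, 24.2, 22.2 and 0.403 TPM in aged and 2.22, 1.94, 0.000341 and 0 TPM in adult diet-fed Hap-I mice (log2 difference 2.69, limma adjusted p = 0.185). Ighv1-72, with the same 3′ end, stood at 11.04, 29.7, 5.72 and 0.470 TPM in the aged and 0.142, 1.85, 0.339 and 0.134 TPM in the adult mice (adjusted p = 0.242). In both, replicate 4 of the aged group lay within the adult range. In all, 10 heavy and 8 kappa segments led in at least 1 of the 16 libraries.

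**Figure D4:**
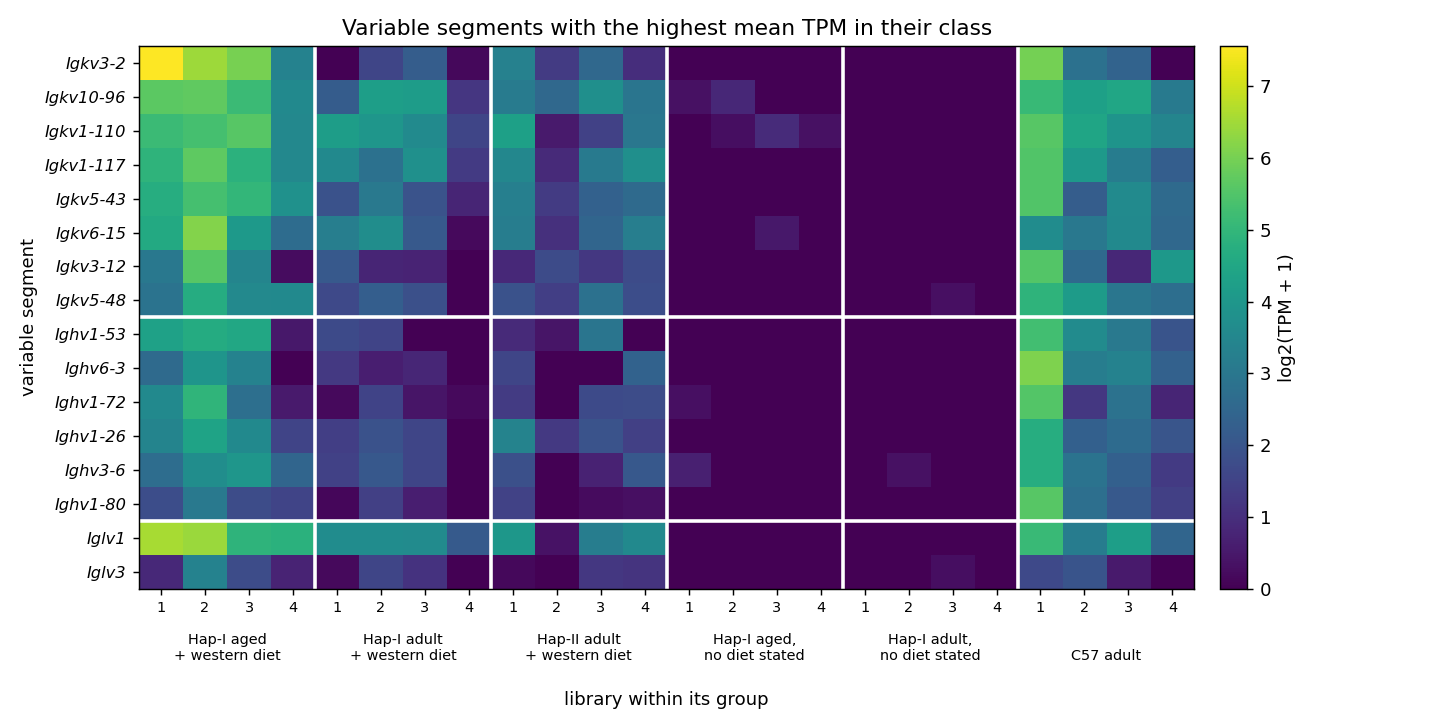
Heat map of the 8 kappa, 6 heavy and 2 lambda variable segments with the highest mean TPM (vertical axis, in that order) in 24 libraries (horizontal axis, by group), coloured by log2(TPM + 1). Igkv3-2 reaches 188 TPM in replicate 1 of aged Hap-I mice on western diet, and the 8 libraries of Hap-I mice with no stated diet hold at most 0.901 TPM of any of these segments.

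Segments were also summed by family, which removes much of the division among near-identical copies. Of 27 families, 1 was called for age on western diet, against 5 of all 12848 genes and family sums in that fit (0.0389%). It was Igkv8, with a log2 difference of 2.95 ± 0.477, aged minus adult diet-fed Hap-I mice (limma adjusted p = 0.0269). This fit was 1 of several alternatives, and the main fit of single genes called 0 members. Igkv12 had a difference of 3.10 (adjusted p = 0.078) and Igkv3 one of 3.79 (adjusted p = 0.12). Of kappa variable TPM, Igkv3 took on average 19.5% in the aged (9.10 to 29.0%) and 6.66% in the adult diet-fed Hap-I mice (5.86 to 7.57%), without overlap. Igkv1 took on average 13.8% in the aged (11.8 to 17.5%) and 23.8% in the adult mice (12.6 to 30.8%), with overlap. These shares were picked from those of all families and are given with no test.

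Position along the kappa locus was described by the 31 of 62 kappa variable members nearest the joining segments. They took 58.7%, 55.5%, 50.9% and 62.5% of kappa variable TPM in aged and 48.03%, 46.7%, 33.6% and 42.3% in adult diet-fed Hap-I mice. The share lay between 47.8 and 60.4% in Hap-II adults and between 44.4 and 51.6% in C57 adults. The 2 Hap-I groups did not overlap, while the Hap-II and C57 libraries overlapped with the aged ones. The share was chosen after values had been seen and is given with no test.

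Joining segments were often listed at 0, and their annotated transcripts are short. Summed over 4 members, kappa joining segments stood at 103, 131, 58.3 and 10.3 TPM in aged and 14.8, 11.4, 1.67 and 0 TPM in adult diet-fed Hap-I mice, overlapping through replicate 4 of the aged group. They stood at 4.97, 0, 0 and 12.1 TPM in Hap-II adults and 120.2, 38.98, 55.8 and 44.4 TPM in C57 adults. Summed over Ighj1 to Ighj4, heavy joining segments stood at 30.99, 95.2, 82.7 and 33.1 TPM in the aged and 41.99, 20.5, 9.18 and 0 TPM in the adult diet-fed Hap-I mice and overlapped as well.

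The haplotypes were compared in diet-fed adults, Hap-I minus Hap-II. Igkc stood at 117, 185, 112 and 43.8 TPM in Hap-I and 201, 37.4, 131 and 109 TPM in Hap-II adults. The groups overlapped, with a log2 difference of -0.01 ± 0.624 (SE, limma adjusted p = 0.998). Ighm stood at 8.50, 20.5, 5.61 and 3.72 TPM in Hap-I and 21.99, 7.49, 22.9 and 6.72 TPM in Hap-II adults (log2 difference -0.62 ± 0.687, adjusted p = 0.817). Igha stood at 24.9, 17.1, 18.9 and 10.2 TPM in Hap-I and 46.2, 1.83, 8.42 and 23.9 TPM in Hap-II adults (log2 difference 0.44 ± 0.652, adjusted p = 0.833). All 3 overlapped, and the sign of the Igkc difference turned under median-of-ratios scaling, quantile scaling and library weights, and that of Ighm under library weights.

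By limma 0 of 117 tested members were called for haplotype, against 10 of 12923 genes (0.0774%), and in 0 members did the groups not overlap, against 2.53% of genes. At an unadjusted p under 0.05 there was 1 member, against 3.26% of all genes: Igkv13-84, chosen after its value was seen, with a log2 difference of 1.55 (limma adjusted p = 0.817). The median log2 difference was -0.02 over the members and -0.22 over all genes. With an SE of 0.624 log2 units in Igkc, these tests do not show that the haplotypes are alike.

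Diet-fed adults of both haplotypes were also set against C57 adults, from which they differ in transgene and in stated diet at once. Both comparisons share the C57 libraries. In Hap-I adults 40 of 117 members fell and 0 rose at a limma adjusted p under 0.05 (34.2%), against 59.7% of all 12923 genes lower and 2.28% higher. In Hap-II adults 28 fell and 0 rose (23.9%), against 36.9% of genes lower and 2.73% higher. Members that lay wholly below C57 numbered 22 in Hap-I adults (all genes 55.3%) and 16 in Hap-II adults (all genes 26.7%). Of the 117, 92 would have been tested without the C57 libraries, and 16 of those 92 (17.4%) lay wholly below C57 in Hap-I adults. The rest reached the filter only with the C57 libraries, which favours a lower value in the diet-fed adults.

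The median of all genes lay below C57 as well. The median log2 difference over all genes was -0.80 in Hap-I and -0.59 in Hap-II adults, and over the members -1.14 in Hap-I and -1 in Hap-II adults. The lower median of the members rested on replicate 1 of C57. Without it the medians in Hap-I adults were -0.87 over all genes and -0.75 over the members. In Hap-II adults they were then -0.67 over all genes and -0.62 over the members. With library weights and all libraries they were -0.79 and -0.60 in Hap-I and -0.72 and -0.76 in Hap-II adults. After median-of-ratios rescaling, which brought the median of all genes to 0.00 in Hap-I and 0.01 in Hap-II adults, the members' medians were -0.65 in Hap-I and -0.64 in Hap-II adults. In Hap-I adults 7 members were then called, all lower, against 14% of all genes lower and 18.2% higher. In Hap-II adults 11 were called, all lower, against 9.54% of genes lower and 13.0% higher.

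The heavy chains of IgM and IgA were among the members that fell. Ighm stood at 8.50, 20.5, 5.61 and 3.72 TPM in diet-fed Hap-I adults and 21.99, 7.49, 22.9 and 6.72 TPM in diet-fed Hap-II adults, against 227, 33.2, 39.6 and 20.9 TPM in C57 adults. Its log2 difference from C57 was -2.52 ± 0.687 in Hap-I adults, without overlap (limma adjusted p = 0.00637), and -1.90 ± 0.687 in Hap-II adults, with overlap (adjusted p = 0.039). Igha stood at 24.9, 17.1, 18.9 and 10.2 TPM in diet-fed Hap-I and 46.2, 1.83, 8.42 and 23.9 TPM in diet-fed Hap-II adults, against 117, 68.95, 85.7 and 42.5 TPM in C57 adults. Its log2 difference was -2.05 in Hap-I adults, without overlap (limma adjusted p = 0.0135), and -2.49 in Hap-II adults, with overlap (adjusted p = 0.0113). After median-of-ratios rescaling the limma adjusted p in Hap-I adults was 0.116 for Ighm and 0.188 for Igha, and after quantile scaling 0.101 and 0.119. The call of Ighm in Hap-II adults was also lost under both scalings (limma adjusted p = 0.259 and 0.209), without a low filter (0.0774), without replicate 2, 3 or 4 of Hap-II, and without replicate 1, 2 or 3 of C57 (between 0.0564 and 0.113).

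Ighg2b was another heavy chain constant region that fell in diet-fed Hap-I adults, where it stood at 1.71, 6.98, 3.49 and 0.906 TPM, against 9.21, 2.24, 5.92 and 1.03 TPM in diet-fed Hap-II adults and 110.2, 8.35, 5.82 and 5.36 TPM in C57 adults. The groups overlapped, and the log2 difference from C57 was -1.98 in Hap-I (limma adjusted p = 0.0346) and -1.65 in Hap-II adults (adjusted p = 0.091). Without replicate 1 of C57 the log2 difference in Hap-I adults was -1.01 (limma adjusted p = 0.125), and with library weights it was -0.42 (adjusted p = 0.262). The limma adjusted p was 0.283 under median-of-ratios scaling, 0.354 under quantile scaling, 0.0747 without a low filter and 0.0575 in a fit of the compared groups alone. Without replicate 1 or 4 of the Hap-I adults the adjusted p was 0.0692 and 0.105.

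For the kappa constant region the result was less clear. Igkc stood at 117, 185, 112 and 43.8 TPM in diet-fed Hap-I adults and 201, 37.4, 131 and 109 TPM in diet-fed Hap-II adults, against 1199.6, 199, 240.3 and 128 TPM in C57 adults. Its log2 difference from C57 was -1.52 in Hap-I (limma adjusted p = 0.0437) and -1.51 in Hap-II adults (adjusted p = 0.0616), with overlap in both. Without replicate 1 of C57 the difference was -0.84 in Hap-I and -0.83 in Hap-II adults. In Hap-I adults the limma adjusted p was 0.171 and 0.0595 without replicate 1 or 3 of C57, and 0.0555, 0.065 and 0.153 without replicate 1, 3 or 4 of the Hap-I adults. Both scalings and the lack of a low filter also ended the call there, with 0.587 under median-of-ratios, as did a fit of the compared groups alone (0.0557). In Hap-II adults it was 0.0292 without their replicate 1 and 0.0492 without replicate 4 of C57, 0.0334 with all 24 libraries in the fit and 0.0137 with library weights. Iglc2 was not called in either comparison (adjusted p = 0.124 in Hap-I and 0.124 in Hap-II adults).

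Among the segments, Igkj4 had the lowest adjusted p in both comparisons. It stood at 0, 2.86, 0 and 0 TPM in diet-fed Hap-I adults and 2.98, 0, 0 and 0 TPM in diet-fed Hap-II adults, against 35.2, 16.5, 11.7 and 8.56 TPM in C57 adults (limma adjusted p = 0.000778 in Hap-I and 0.00106 in Hap-II adults). Igkv5-48 stood at 2.19, 3.82, 2.59 and 0 TPM in Hap-I and 2.76, 1.64, 6.00 and 2.43 TPM in Hap-II adults, against 28.97, 16.8, 6.79 and 5.65 TPM in C57 adults (adjusted p = 0.00346 in Hap-I and 0.0228 in Hap-II adults). Ighv9-3 stood at 1.02, 0, 0 and 0.232 TPM in Hap-II adults and 7.77, 5.78, 4.73 and 1.18 TPM in C57 adults (adjusted p = 0.0091). Of 50 tested heavy variable members, 23 fell in Hap-I and 13 in Hap-II adults, and of 50 tested kappa variable members 9 fell in Hap-I and 8 in Hap-II adults.

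Of the lists, 4 of 7 tested genes of the B cell receptor and B cell identity and 3 of 5 plasma cell genes fell in Hap-I adults relative to C57, against 2 of 7 and 2 of 5 in Hap-II adults. Of 9 receptors and carriers of antibody, 2 fell in Hap-I and 0 in Hap-II adults, and 0 genes of these lists rose. Of all genes, 59.7% fell in Hap-I and 36.9% in Hap-II adults, so these counts are read as no more than a description of the lists.

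These counts of called members leaned on single libraries. Without replicate 1 of C57, 16 members were called in Hap-I and 14 in Hap-II adults, while the genes called numbered 8043 in Hap-I adults, against 8009 with all libraries, and 5637 in Hap-II adults, against 5127. Without replicate 3 of the Hap-I adults 23 members and 7039 genes were called, and without their replicate 4 15 members and 6042 genes. Without replicate 2, 3 or 4 of the Hap-II adults 15, 11 and 16 members were called, beside 4118, 1803 and 2945 genes. The 5127 genes called in Hap-II adults became 2674, 2783 and 2317 without replicate 2, 3 or 4 of C57.

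Replicate 1 of C57 also had 12.6 TPM of Cd79a, against at most 2.55 TPM in the other C57 libraries, and its 6 B cell markers summed to 38.7 TPM. Tissue content differed as well, with the fat cell gene Adipoq at most 5.65 TPM in diet-fed adults and at 111, 118, 35.4 and 2.87 TPM in C57 adults. The nephron genes summed to between 350.2 and 1371 TPM in Hap-I and between 659 and 3332 TPM in diet-fed Hap-II adults, and to between 3259 and 5619 TPM in C57 adults. Of 5 lymph node stroma and vessel markers 3 were tested, of which 3 fell in Hap-I and 2 in Hap-II adults, and the 5 summed to between 7.21 and 27.2 TPM in Hap-I, between 9.96 and 16.2 TPM in Hap-II and between 26.9 and 66.2 TPM in C57 adults. Of 6 macrophage markers 3 fell in Hap-I and 1 in Hap-II adults, with sums between 30.1 and 106 TPM in Hap-I, between 39.2 and 125 TPM in Hap-II and between 92.3 and 152 TPM in C57 adults. Of 5 red cell markers 2 rose in Hap-I and 2 in Hap-II adults, with sums between 3906 and 9619 TPM in Hap-I, between 2700.5 and 10648.5 TPM in Hap-II and between 832 and 2311 TPM in C57 adults. The part of these contents in the differences was not tested.

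The 8 libraries of Hap-I mice with no stated diet, which held neuronal transcripts, carried mu heavy chain with little light chain. Ighm stood at 23.1, 17.5, 59.3 and 24.4 TPM in the aged and 11.2, 10.7, 28.8 and 15.5 TPM in the adult libraries. Igkc stood at 0.724, 3.16, 1.73 and 1.21 TPM in the aged and 0.478, 0.283, 0.247 and 0.824 TPM in the adult libraries, and Iglc2 was listed at 0 in all 8. The ratio of Ighm to Igkc lay between 5.54 and 34.2 in the aged and between 18.9 and 117 in the adult libraries, and between 0.0503 and 0.200 in the other 16.

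**Figure D5:**
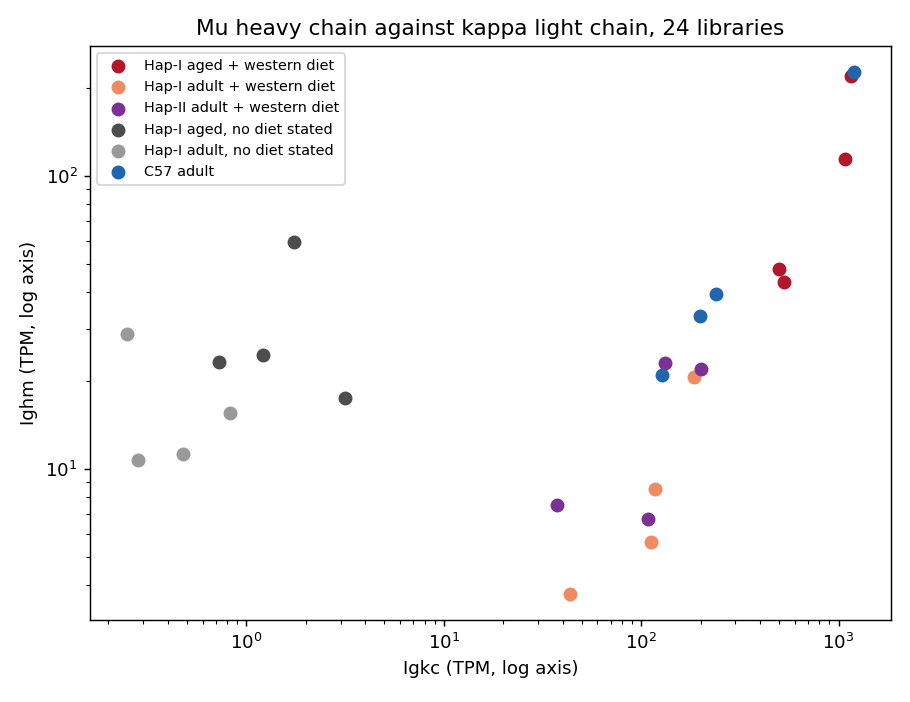
Ighm (vertical) against Igkc (horizontal) in TPM, both on log axes, in 24 libraries coloured by group. The 8 libraries of Hap-I mice with no stated diet lie apart on the left, with Igkc at or below 3.16 TPM and Ighm between 10.7 and 59.3 TPM, while in the other 16 Ighm is below Igkc.

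In these 8 libraries heavy variable members summed to at most 1.07 TPM and kappa variable members to at most 2.09 TPM, and the kappa joining members were listed at 0. Heavy joining segments summed to 40.2, 20.5, 20.6 and 11.5 TPM in the aged and 0, 0, 24.05 and 0 TPM in the adult libraries. Ighj1 accounted for 24.7, 12.5, 10.6 and 11.5 TPM in the aged and 0, 0, 24.05 and 0 TPM in the adult ones. Ighj2, Ighj3 and Ighj4 reached at most 10.1, 5.397 and 5.26 TPM in the aged libraries and were listed at 0 in the adult ones. Ighm made up between 87.7 and 94.3% of heavy chain constant TPM in the aged and between 81.1 and 93.9% in the adult libraries. The 6 B cell markers summed to between 0.645 and 1.18 TPM in the aged and between 0.560 and 0.772 TPM in the adult libraries, and Jchain was at most 0.500 TPM.

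Age was tested within these 8 libraries too. Only 3 members, Ighm, Ighg2c and Ighj1, were high enough to be tested, and 0 were called by limma, against 4 of 13497 genes (0.0296%). The unadjusted p was under 0.05 in 1 of the 3, Ighj1 (log2 difference 2.74, limma adjusted p = 0.237), against 15.4% of genes. Ighm had a log2 difference of 0.82 ± 0.375, aged minus adult, with overlap (adjusted p = 0.328). Without replicate 3 of the adults 1 member was called.

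Whether age made a different difference on western diet than without it was tested as an interaction in 24 libraries. By limma 0 of 117 members were called, against 4 of 15200 genes (0.0263%), and 64 members had an unadjusted p under 0.05, against 10% of genes. Only 3 of the 117 reached the filter within the 8 libraries with no stated diet and 88 were listed at 0 in all of them, so for most members this contrast repeats the age difference on the diet and nothing is read from its count. The median over 50 heavy variable members, for example, was 1.28 log2 units in both. The difference of differences was 2.06 ± 0.8 log2 units for Igkc (limma adjusted p = 0.37) and 2.46 ± 0.917 for Ighm (adjusted p = 0.345). Without replicate 4 of the aged diet-fed group 8 members were called among 16 genes, and without replicate 2 of the adult diet-fed Hap-I group 2 among 4. The tissue contents of the compared sets differ, and their part was not tested.

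Western diet against no stated diet likewise set kidney against libraries of neuronal content. Since most of the 117 tested members were listed at 0 in all 8 of those libraries and passed the filter through the others, they had little room to be lower on the diet, and nothing is read from their counts or direction. By limma 107 of 117 members were higher on the diet in aged Hap-I mice, where 20.5% of all genes were higher and 60.5% lower. In adult Hap-I mice the count was 25, where 16.9% of all genes were higher and 63.3% lower. Igkc was higher by 8.21 log2 units in the aged and 6.15 in the adult mice. Ighm was higher by 1.59 log2 units in aged mice (limma adjusted p = 0.0291), and in adult mice its difference was -0.87 (adjusted p = 0.223), or 0.32 after median-of-ratios rescaling. In aged mice the limma adjusted p of Ighm lay between 0.0569 and 0.123 without replicate 1 or 2 of the diet-fed group, or 1, 2 or 4 of the other.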

How the data were processed

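Poly(A)-selected stranded Illumina TruSeq libraries from RNA isolated with a Qiagen kit were sequenced, per the labels' protocols. The authors deposited 1 table of TPM per Ensembl gene and library, without gene names; kallisto, DESeq2 and GRCm38 are named without versions or roles per the submitters' processing notes, and the annotation release is not given in the sources used here. Deposited TPM sum to between 904693 and 944019 per library. Depth is unknown, so no counting interval or floor is given.

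Columns were matched to samples by title. Of 30153 identifiers 29732 matched symbols in the reference tables. The members and lists were chosen with earlier results of these data known. Values were tested as log2(TPM + 1), which understates the change of low genes, in genes that reached 1 TPM in 4 or more libraries of the fit, with limma 3.58.1 (R 4.3.3, mean-variance trend). Group means were fitted to the 16 libraries with nephron transcripts for age and haplotype on the diet and the C57 contrasts, to 8 for age without it, and to 24 for the diet contrasts and the interaction. P-values were two-sided and adjusted over all genes (Benjamini-Hochberg, threshold 0.05), and the fit was tested on simulated data. Constant genes also had exact permutation tests (scipy 1.17.1). Separate animals are stated, so p-values measure the spread between animals.

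Named were all constant genes, the 6 heavy, 8 kappa and up to 3 lambda variable segments of highest mean in the 16 libraries, the leading segments of libraries, the called members of lowest adjusted p, joining segments, and of each pathway list the genes called or the most abundant. Genes outside this rule are marked or stand as cell markers. Motif matches are descriptions. Copies were measured by shared 31-base words among GENCODE M21 transcripts. Promoters of the members were not used here.

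Alternatives were a pseudocount of 0.1, no low filter, 5 TPM, median-of-ratios and quantile scaling, all 24 libraries, only the compared groups, library weights, segments summed by family, each library left out, a replicate block and, chosen after seeing the data, the same 12 libraries without the block. One gene of each of the recombination and nephron lists is not reported here, and the sums and counts of both lists leave it out.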

Additional observations from a re-analysis of the deposited data

Results flagged for a closer look

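In groups of 4 libraries, 14 of 66 sets of values held a library farther from its companions than Dixon's 95% critical value. That value is set for normally distributed values, whereas these were not log-transformed. The sets also overlap, since the TPM summed over the members include those of the single genes. The count of 14 is therefore not compared with a chance rate and serves as a description. Replicate 1 of C57 stood above its companions in 7 of the 14 sets. It had 3796.5 TPM summed over the members (others at most 841 TPM), 1199.6 TPM of Igkc (others at most 240.3 TPM), 13.6 TPM of Iglc2 (others at most 2.84 TPM) and 227 TPM of Ighm (others at most 39.6 TPM). Its gamma chains stood at 20.5 TPM for Ighg1 (others at most 1.10 TPM), 110.2 TPM for Ighg2b (others at most 8.35 TPM) and 231 TPM for Ighg2c (others at most 12.05 TPM). Igha, at 117 TPM, did not stand apart there. The B cell markers of this library were high too, and their part was not tested.

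Among the libraries of neuronal content, replicate 3 of aged Hap-I mice with no stated diet had 59.3 TPM of Ighm (others at most 24.4 TPM), 6.78 TPM of Ighg2c (others at most 1.00 TPM) and 0.408 TPM of Ighg2b (others at most 0.126 TPM). Replicate 4 of that group had 0.993 TPM of Ighd (others at most 0.472 TPM). Replicate 4 of adult Hap-I mice with no stated diet had 0.165 TPM of Ighg1, which was listed at 0 in the other 3.

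Replicate 1 of diet-fed Hap-II adults had 5.41 TPM of Ighg1 (others at most 0.368 TPM). In replicate 4 of adult diet-fed Hap-I mice, kappa variable TPM per Igkc TPM was 0.3997, against 0.942 to 1.05 in the other 3, and this library also had the lowest total of its group.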

How the results depend on the processing

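For age on western diet, 0 members were called under 7 of 10 alternatives besides leaving out a library. The exceptions were all 24 libraries in the fit (34 members, 443 genes), library weights (44 members, 2199 genes) and sums by family (1 family, among 5 genes or family sums called). A fit of the compared groups alone gave 2 genes. Leaving out a library gave 0 to 12 members and 2 to 22 genes. All 419 alternative values of 23 named genes kept their sign, and 21 newly passed the threshold. For haplotype, library weights called 1 member and 51 genes, and leaving out a library gave 4 to 7 genes and 0 members. The Igkc difference turned to 0.27 under median-of-ratios, 0.21 under quantile scaling and 0.505 under library weights, and that of Ighm to 0.35 under library weights. Without a library, Igkc lay between -0.48 and 0.39 and Igha between -0.31 and 1.04.

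Against C57, Hap-I adults had 7 members called (4097 genes) under median-of-ratios, 5 (3910.0 genes) under quantile scaling, 18 without a low filter, 21 at 5 TPM and 21 by family, and 15 to 47 members and 6042 to 8104 genes without a library. Hap-II adults had 11 (2876 genes), 6 (2915 genes), 15, 16 and 16 in that order, 45 with 24 libraries, 46 (9706 genes) with weights, and 11 to 35 members and 1803 to 6961 genes without a library. Under median-of-ratios 2317 genes lay above C57 and 1780 below it in Hap-I adults, against 294 and 7715 as deposited, and in Hap-II adults 1661 and 1215, against 353 and 4774.

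Age without the diet gave 1 gene at a pseudocount of 0.1, 1 without a low filter and 65 in 24 libraries, and 1 to 5 genes and 0 to 1 members without a library. Ighg2c turned to -0.082 at a pseudocount of 0.1 and lay between -0.26 and 0.27 without a library. Diet in adults gave 51 members at a pseudocount of 0.1 and 18 to 35 without a library, and Ighm turned to 0.32 under median-of-ratios. The interaction gave 0 genes at a pseudocount of 0.1, 2 under median-of-ratios, and 2 to 34 genes and 0 to 8 members without a library. The mean total of aged Hap-I mice with no stated diet was 61.8 TPM, 37.1 TPM rescaled and 38.6 TPM without joining segments. The cause of these shifts was not tested.

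Libraries of different groups on western diet were correlated over genes after each group's mean log2(TPM + 1) was subtracted. Same-numbered libraries then correlated between -0.132 and 0.539, most of them positively. Different-numbered ones correlated between -0.509 and 0.563, most of them negatively. The subtraction makes the deviations within a group sum to 0, so the signs of these correlations are not independent. These values do not decide whether the numbers pair samples. The main fits left the numbers out, and a block on them was fitted as an alternative. With the replicate block 0 members were called, with 2 genes for age and 5 for haplotype, against 2 genes for age in the same 12 libraries with no block, chosen after seeing the data.

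Depth is unknown from TPM, single segments share sequence, and 8 libraries differ in tissue content.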
